A study of Mus musculus with 5 samples.

Results

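Myoglobin (Mb) is 1 gene of the 52022 genes to which transcripts of the brown adipose tissue (BAT) libraries were assigned, and it was among the 16450 with enough counts to be compared. It was selected on its measured levels in these same libraries, set beside the muscle genes Ckm and Acta1 and beside Ucp1, so its levels and its difference between genotypes are given as a description, with no test. BAT RNA came from 3 ATF4 BKO mice and 2 WT mice on a C57Bl/6J background, 10 to 12 weeks old, fed ad libitum and kept at 4 °C for 3 days after acclimation to 30 °C. ATF4 BKO mice carried floxed Atf4 alleles and the Tg(Ucp1-cre)1Evdr transgene, which drives Cre from the Ucp1 promoter, so that deletion is meant for the Ucp1-expressing adipocytes of the depot. WT mice were littermates with the same floxed alleles and no Cre, so both genotypes shared the floxed locus. Each mouse gave 1 library.

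The libraries held between 24698337 and 32452751 estimated counts. The deleted gene checked the labels: Atf4 stood at 22.1, 40.5 and 16.4 TPM (transcript level corrected for transcript length and library size) in ATF4 BKO 1, 2 and 3, against 227 and 188 TPM in WT 1 and 2, a log2 fold change of -2.82 ± 0.34 (SE). With edgeR's quasi-likelihood test the adjusted p of Atf4 was 0.671, and with DESeq2 it was 9.72e-12. All mice are labelled male, yet Xist, which females express, had 4598 counts in the library labelled ATF4 BKO 1 and no more than 7 elsewhere. ATF4 BKO 1, ATF4 BKO 2 and WT 1 share one sample name prefix and ATF4 BKO 3 and WT 2 another, and no source says what the prefixes stand for. Brown adipocyte genes were abundant in every library, with Ucp1 between 8039 and 10072 TPM, and skeletal muscle genes were abundant in WT 2 alone.

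Myoglobin is a small cytoplasmic globin that holds a single heme and binds oxygen reversibly. It is best known as the oxygen store of heart and of oxidative skeletal muscle, and it also binds fatty acids. Brown adipocytes, which are rich in mitochondria and oxidise fatty acids to make heat, express it too. For this reason Mb in a brown fat sample can come from adipocytes, from attached muscle, or from both.

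Mb (ENSMUSG00000018893.15) lies on the minus strand of mouse chromosome 15, at chr15:77015487-77050670 of GRCm38. Atf4 lies on the same chromosome, 3205 kb away. The annotation gives Mb 6 protein-coding transcripts that differ mainly in their first exons. Mb-202 starts at position 77050670, far upstream and within the region covered by Apol6 on the opposite strand, while Mb-203 starts at 77022787 and Mb-206 at 77021963. Mb-201, Mb-202, Mb-203 and Mb-205 each encode 154 codons, whereas Mb-206 lacks the first coding exon of the others and has 99 codons. The 250 bases before the Mb-203 start are shown because they are the proximal upstream region of a transcript with counts in every library and overlap no annotated exon. The sequence is RefSeq's, GRCm38.p6, minus strand, chr15:77022788-77023037, written 5′ to 3′, and the capitals mark E-boxes (CANNTG) and a CCAC box (CCACCCC), elements that have been studied in muscle gene promoters.

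Mb-203 upstream: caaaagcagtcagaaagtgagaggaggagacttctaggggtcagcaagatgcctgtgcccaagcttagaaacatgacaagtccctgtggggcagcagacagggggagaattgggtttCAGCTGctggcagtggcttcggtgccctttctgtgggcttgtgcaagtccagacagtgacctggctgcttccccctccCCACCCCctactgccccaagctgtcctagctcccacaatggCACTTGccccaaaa

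The window held 57.2% G and C. It had E-boxes starting 133 and 14 bases before the transcript start and 1 CCAC box 55 bases before it, with both strands searched and no overlap between these motifs. E-boxes occurred in 66.22% of the 32851 RefSeq upstream windows of the same length and the CCAC box in 13.54%. The letters ACGTG, the core bound by hypoxia-inducible factors, were not in this window (16.57% of all windows held them). Nor were TGATGNAA, a core of amino acid response elements bound by ATF4 (3.45%), or TATAAA (12.37%). These matches describe the letters alone.

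Mb was expressed in all 5 libraries, and its level varied widely within each genotype. The estimated counts of Mb were 7530 in ATF4 BKO 1, 1933 in ATF4 BKO 2 and 9023 in ATF4 BKO 3, and 359 in WT 1 and 4598 in WT 2. Per length and library size, these were 438, 105 and 414 TPM in the ATF4 BKO mice and 18.4 and 220 TPM in the WT mice. The 95% counting intervals were narrow beside these gaps, from 16.5 to 20.4 TPM in WT 1 and from 100.5 to 110 TPM in ATF4 BKO 2, and they cover counting error only. In ATF4 BKO 1 Mb was the 267th most abundant gene by TPM, in ATF4 BKO 3 the 292nd, in WT 2 the 554th and in ATF4 BKO 2 the 1000th, and in WT 1 the 4735th. ATF4 BKO 1 and 3 were therefore high, WT 1 was low, and ATF4 BKO 2 lay below WT 2, so that the genotypes overlapped.

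**Figure D1:**
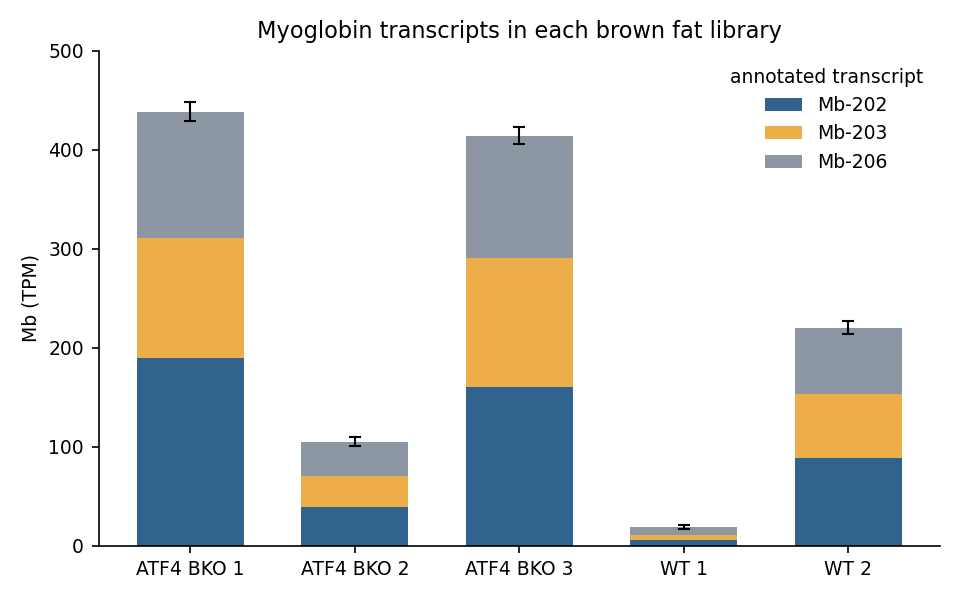
Mb level in each library (bars, TPM, axis from 0), stacked by the 3 annotated transcripts with counts, with error bars for the 95% counting interval of the sum. ATF4 BKO 1 and 3 reach 438 and 414 TPM, WT 2 lies above ATF4 BKO 2 (220 against 105 TPM), and WT 1 is lowest at 18.4 TPM.

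The mean level was 319 ± 186 TPM in ATF4 BKO mice (SD, n = 3) and 119 ± 143 TPM in WT mice (SD, n = 2). The fitted log2 fold change of Mb was 1.68, higher in ATF4 BKO, while the SD of its log2 CPM (counts scaled to library size) was 1.28 within ATF4 BKO and 2.52 within WT. The pooled SD within genotype was 1.79. On the log2 TPM scales the mean difference was larger than the fitted value, at 2.04 with 1 TPM added and 2.07 with 0.1 TPM added. Whether the difference exceeded that SD thus depended on the scale. The fitted log2 fold change rested on the WT libraries: it was 0.82 without WT 1 and 4.37 without WT 2, and 1.34 without ATF4 BKO 1, the library with Xist counts. Within the first sample name prefix the mean of the ATF4 BKO libraries was 14.8 times the WT level, and within the second prefix ATF4 BKO 3 was 1.88 times WT 2. Every ATF4 BKO library thus lay above the WT library of its own prefix, on 1 WT library each.

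In order of level, ATF4 BKO 1 was followed by ATF4 BKO 3, WT 2, ATF4 BKO 2 and WT 1. The first gap was 0.13 on the log2 CPM scale. Over all 5 libraries, a wider measure than a gap between 2, the median range was 0.44 among abundant genes. Abundant genes are those with a mean of at least 100 TPM. The next gaps were 1.16 and 0.98, both smaller than the pooled SD of Mb. The last gap, between ATF4 BKO 2 and WT 1, was 2.59 and exceeded that SD. The SD comes from these same 5 libraries, WT 1 included, so it is no independent measure for the gaps.

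Mb had the widest range among the abundant genes, but it was selected on these same levels, so its rank is a description. From the lowest to the highest library Mb spanned 23.9-fold in TPM and 4.86 on the log2 CPM scale, with 4.17-fold among the ATF4 BKO mice and 12.0-fold between the WT mice. Of the 1036 genes with a mean of at least 100 TPM, 0 others had as wide a log2 CPM range, and over all genes compared 114 others did, where the median range was 0.66. The next widest abundant genes were Gm28438 (4.44), the lysosomal protease gene Ctss (4.17), the cytochrome P450 gene Cyp2b10 (3.96), the fatty acid synthesis gene Acly (3.64) and the macrophage lysozyme gene Lyz2 (3.22), which were named after their values were seen. Gm28438 and Cyp2b10 were the 2 abundant genes whose pooled SD within genotype (1.93 and 1.83) was larger than that of Mb.

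**Figure D2:**
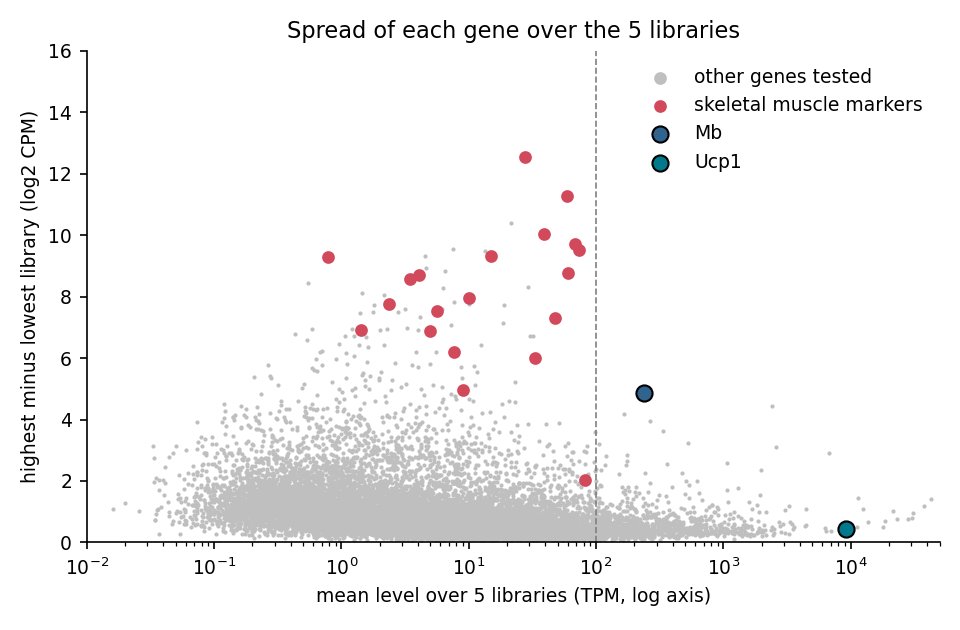
Each point is 1 of the 16450 genes compared: its mean level (horizontal, TPM, log axis) and the highest minus the lowest library (vertical, log2 CPM), with a dashed line at 100 TPM. Mb, at a range of 4.86, is the highest point to the right of the line, while most of the 20 muscle markers lie higher and to the left and Ucp1 lies near the bottom.

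Counts fell on 3 of the 6 annotated transcripts. Mb-202, the transcript from the distal start, had 189, 39.1 and 161 TPM in ATF4 BKO 1, 2 and 3, and 5.58 and 88.8 TPM in WT 1 and 2. Mb-203 had 122, 30.9 and 130 TPM in the ATF4 BKO mice and 5.14 and 64.6 TPM in the WT mice. Mb-206, the short form, had 127, 35.1 and 123 TPM and 7.66 and 66.6 TPM. Each transcript followed the order of the gene or came close to it, with ATF4 BKO 1 and 3 highest and WT 1 lowest. Mb-201, Mb-204 and Mb-205 were listed at 0 in every library.

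The proportions differed less than the levels. Mb-202 made up 43.1%, 37.2% and 38.8% of Mb TPM in ATF4 BKO 1, 2 and 3 and 40.4% in WT 2, and 30.4% in WT 1, where the gene had its fewest counts. These shares are kallisto's estimates, since most of the sequence is common to the transcripts. Of the 31-base words in each transcript, 12.8% in Mb-202, 15.6% in Mb-203 and 10.2% in Mb-206 were in no other Mb transcript. With Mb-202 alone in place of the sum, the log2 fold change of Mb was 1.71.

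Other annotated genes shared 31-base words with Mb in antisense orientation only. Of all 31-base words of Mb, 25.3% also occurred in antisense orientation in Gm49540, an antisense gene over the last Mb exon, and 2.38% in Apol6, an apolipoprotein L gene. Libraries were stranded, but the strand setting of the counting is not given in the sources used here. Gm49540 was at no more than 0.84 TPM in any library. Apol6 ranged from 14.1 to 23.9 TPM, within a narrow band beside the range of Mb.

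Ckm and Acta1 separated the genotypes and were lower in ATF4 BKO, whereas Mb overlapped between genotypes and had a higher mean in ATF4 BKO. Both also were higher in WT 2 than in WT 1, as Mb was. Ckm, the creatine kinase of skeletal muscle, was at 0.088, 4.56 and 0.156 TPM in ATF4 BKO 1, 2 and 3 and at 9.94 and 330 TPM in WT 1 and 2. Acta1, skeletal muscle actin, was at 0.99, 3.15 and 0.289 TPM in the ATF4 BKO mice and at 17.2 and 345 TPM in the WT mice. Both were higher in each WT library than in any ATF4 BKO library, as were 10.6% of all genes compared on the CPM scale. Both were lowest in the libraries where Mb was highest, ATF4 BKO 1 and 3. Only 4.01 counts of Ckm stood against 7530 of Mb in ATF4 BKO 1, and 11.02 against 9023 in ATF4 BKO 3.

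The ratio of Mb to Ckm in TPM was 0.667 in WT 2 and 1.85 in WT 1. It was 23.0 in ATF4 BKO 2, 2648 in ATF4 BKO 3 and 4957 in ATF4 BKO 1, where the few Ckm counts allow 1938 to 18160. The ratio of Mb to Acta1 was 0.637 and 1.07 in WT 2 and WT 1, and 33.3, 1431 and 442 in ATF4 BKO 2, 3 and 1. The mean log2 ratio was higher in ATF4 BKO by 9.24 for Ckm and by 8.39 for Acta1, and neither ratio overlapped between genotypes. Mb was selected beside these genes, so this separation is a description. The fitted log2 fold changes were -6.44 for Ckm and -6.63 for Acta1, beside 1.68 for Mb. With all libraries the reference genes thus differed more than Mb did, and this rested on WT 2. Without WT 2 the log2 fold change of Mb was 4.37. The median over 20 skeletal muscle markers that include Ckm and Acta1 was then -2.10. In bulk tissue, fewer cells of a type and less RNA per cell cannot be told apart, for muscle as for adipocytes.

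**Figure D3:**
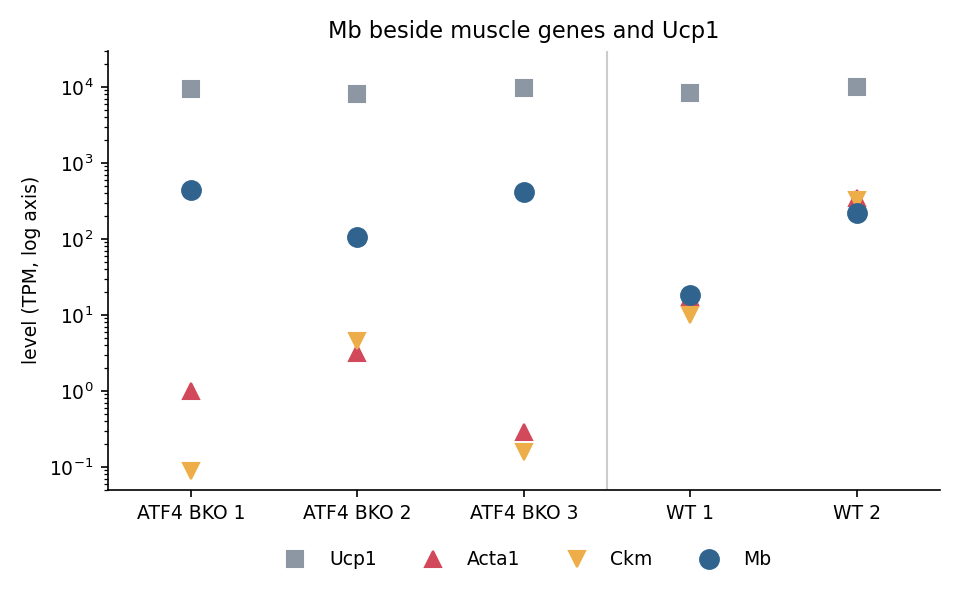
Levels of Mb, Ckm, Acta1 and Ucp1 in each library (TPM, log axis), with 1 point per gene and library and a line between the genotypes. Ucp1 is level across libraries, Ckm and Acta1 lie close to Mb in WT 1 and WT 2, and in the ATF4 BKO libraries they lie far below Mb.

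Most muscle genes went in the direction of Ckm and Acta1 rather than that of Mb. Ckm and Acta1 are themselves among the genes counted here, so the lists are in part compared with themselves. Of 26 genes of fast fibres or shared by muscle types, 25 were lower in ATF4 BKO and 1 was higher (Cox8b, a cytochrome oxidase subunit that brown fat also expresses), with a median log2 fold change of -5.93 that was -1.90 without WT 2. Among them are 20 genes listed as markers of skeletal muscle, all with lower values in ATF4 BKO, 19 of them lower in every ATF4 BKO library than in both WT libraries, against 10.6% of all genes. The median log2 fold change of the 20 markers was -6.39, beside 0.01 over all genes, and it was -2.10 without WT 2. DESeq2 called 11 of them lower, against 0.608% of all genes, and edgeR called 0 of 20, against 0.00608% of all genes, where 19 had an unadjusted p under 0.05 against 5.23%. The summed level of the markers was 73.9, 71.5 and 76.8 TPM in ATF4 BKO 1, 2 and 3 and 160 and 2395 TPM in WT 1 and 2. In the ATF4 BKO libraries between 58.8% and 89.2% of that sum was Myl1, a myosin light chain, at 60.04, 42.0 and 68.5 TPM. In ATF4 BKO 3 the calcium-binding Pvalb and the troponin gene Tnnt3 were listed at 0.

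Slow fibres are the skeletal muscle fibres richest in myoglobin, so their genes were listed separately. Of 11 slow muscle genes 9 were tested, of which 7 were lower and 2 higher in ATF4 BKO, and the median log2 fold change was -1.71. The sign of that median rested on WT 2: it was 0.47 without WT 2 and 0.19 within the first prefix. DESeq2 called 2 of them lower, Myh7 and Myoz2, a slow myosin heavy chain and a sarcomere protein, against 0.608% of all genes. EdgeR called 0, with 3 under an unadjusted p of 0.05, against 5.23% of all genes. Myh7 was at 0, 0.047 and 0.010 TPM in ATF4 BKO 1, 2 and 3 and at 0.307 and 6.93 TPM in WT 1 and 2. Of 11 heart muscle genes 2 passed the count filter, and Myh6, the atrial myosin heavy chain, did not exceed 0.050 TPM in any library. None of 8 myogenic factors passed the filter. Members of the slow list were not alike: Tnnc1, a troponin of slow and heart muscle, was at 1.91, 1.15 and 2.16 TPM in ATF4 BKO 1, 2 and 3 and at 0.67 and 5.45 TPM in WT 1 and 2. Casq2, a calcium-binding protein of slow and heart muscle, was highest in ATF4 BKO 1, at 2.86 TPM, against 2.45 TPM in WT 2. With the mean log2 CPM of the 20 skeletal muscle markers as a covariate, the log2 fold change of Mb was 5.52. The part of muscle RNA in the Mb of each library was not tested.

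Ucp1, the uncoupling protein of brown adipocytes, did not follow Mb. Its level was 9427, 8039 and 9754 TPM in ATF4 BKO 1, 2 and 3 and 8372 and 10072 TPM in WT 1 and 2, so the genotypes overlapped. The log2 fold change of Ucp1 was 0.17 ± 0.24 (SE, edgeR adjusted p = 0.953) and turned to -0.02 on both log2 TPM scales. Mb amounted to 4.65%, 1.31% and 4.25% of Ucp1 in ATF4 BKO 1, 2 and 3, and to 0.220% and 2.18% in WT 1 and 2. The 2 lowest Ucp1 levels were in ATF4 BKO 2 and WT 1, the libraries with least Mb, but Ucp1 differed between libraries far less than Mb did.

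Other genes of brown adipocytes had smaller fold changes than the 1.68 of Mb. Of 20 listed with Ucp1, 11 were lower and 9 higher in ATF4 BKO, and the median log2 fold change was -0.03. The fold changes ran from -0.70 for Bmp8b, a secreted BMP, to 0.54 for Dio2, the deiodinase that activates thyroid hormone. EdgeR and DESeq2 called 0 of them, and 0 had an unadjusted p under 0.05 in edgeR. Genes of fatty acid binding and oxidation, a pathway whose substrates Mb can bind, were lower in 2 of 12 cases and higher in 10, with a median of 0.15 whose sign changed under 3 of 16 alternatives, 0 called by edgeR or DESeq2 and 0 under an unadjusted p of 0.05. Among them Fabp3, the fatty acid binding protein that muscle and brown fat share, was at 1957, 2958 and 2577 TPM in ATF4 BKO 1, 2 and 3 and at 3283 and 3061 TPM in WT 1 and 2. Fabp3 was thus lowest in ATF4 BKO 1, where Mb was highest.

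Of the other globins, 5 of 9 genes besides Mb passed the count filter. Cygb, cytoglobin of connective tissue cells, was at 11.5, 19.7 and 12.8 TPM in ATF4 BKO 1, 2 and 3 and at 11.2 and 13.5 TPM in WT 1 and 2. The log2 fold change of Cygb was 0.42 ± 0.21 (SE, edgeR adjusted p = 0.911). Neuroglobin (Ngb) did not exceed 0.24 TPM. Haemoglobin transcripts, which reach the tissue in blood, ran against Mb: Hbb-bs was at 1157, 1915 and 1152 TPM in ATF4 BKO 1, 2 and 3 and at 3157 and 1746 TPM in WT 1 and 2. It was highest in WT 1, where Mb was lowest, and lowest in ATF4 BKO 1 and 3, where Mb was highest. The fold changes of the 4 haemoglobin genes lay between -0.68 and -0.55 on the log2 scale, with 0 called by edgeR or DESeq2 and 0 under an unadjusted p of 0.05. The difference rested on WT 1: the median over the 5 globins was -0.63 with all libraries and -0.03 without WT 1.

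Mb needs heme and iron, and most of the genes that supply them overlapped between genotypes, as did most of all genes compared. On the CPM scale, 2 of 20 heme genes had each ATF4 BKO value below both WT values, and 1 had each above. Among 13 iron genes these numbers were also 2 and 1. Over all genes compared the shares were 10.6% below and 8.95% above. Of 20 genes of heme synthesis and turnover 12 were lower and 8 higher in ATF4 BKO around a median log2 fold change of -0.02, with 0 called by edgeR or DESeq2 and 0 under an unadjusted p of 0.05. Alas1, the rate-limiting enzyme of heme synthesis outside blood cells, was at 327, 320 and 351 TPM in ATF4 BKO mice and at 473 and 444 TPM in WT mice, with a log2 fold change of -0.24 ± 0.15 (SE, edgeR adjusted p = 0.920). Of 13 iron supply genes 9 were lower and 4 higher, with a median of -0.08 that was -0.04 without WT 1. EdgeR and DESeq2 called 0 of them, and 1, Tfrc, had an unadjusted p under 0.05 in edgeR, against 5.23% of all genes. The transferrin receptor gene Tfrc was at 13.6, 21.1 and 17.8 TPM in ATF4 BKO 1, 2 and 3 and at 19.2 TPM in WT 2, and stood apart at 76.3 TPM in WT 1, the library lowest in Mb.

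Known regulators of Mb in muscle differed in both directions. These include MEF2 and NFAT factors, calcineurin, PGC-1 alpha and HIF factors, and of the 16 tested 7 were lower and 9 higher in ATF4 BKO around a median log2 fold change of 0.03, whose sign changed under 7 of 16 alternatives. EdgeR and DESeq2 called 0 of them. In edgeR 1 of the 16, Hif1a, had an unadjusted p under 0.05, with lower values in ATF4 BKO, against 5.23% of all genes. Ppargc1a, the coactivator of mitochondrial and oxidative genes, was at 12.5, 45.5 and 11.7 TPM in ATF4 BKO 1, 2 and 3 and at 15.1 and 28.7 TPM in WT 1 and 2. It was highest in ATF4 BKO 2, the ATF4 BKO library with least Mb.

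Genes of oxygen sensing and the hypoxia response, a state in which stored oxygen matters, were lower in 5 and higher in 11 of 16 cases, with a median log2 fold change of 0.14 that turned to -0.04 on the log2 TPM scales, where the median of all genes also shifted to -0.12 and -0.17. Bnip3, which marks mitochondria for removal, was at 190, 230 and 219 TPM in ATF4 BKO mice and at 121 and 157 TPM in WT mice. The log2 fold change of Bnip3 was 0.90 ± 0.15 (SE), with an adjusted p of 0.671 in edgeR and 5.66e-05 in DESeq2, which called it the sole member higher, against 0.128% of all genes. Of the 16, 3 were higher in every ATF4 BKO library than in both WT libraries on the CPM scale (Ldha, Bnip3 and Ankrd37), against 8.95% of all genes, and edgeR called 0 of them. Ldha, lactate dehydrogenase A, was at 2454, 1615 and 2277 TPM in ATF4 BKO 1, 2 and 3 and at 1496 and 1730 TPM in WT 1 and 2. In TPM, Ldha and Ankrd37 were lower in ATF4 BKO 2 than in WT 2, so of these 3 genes Bnip3 alone did not overlap on that scale.

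Likeness to Mb was measured as the root mean square difference between log2 CPM profiles, each centred on its own mean over the 5 libraries. A gene equal in all libraries would score 1.78 and a gene with the same profile 0. Of 16449 genes 13 scored under 1, and most of the nearest 15 had few counts. The nearest was Fxyd3 (0.74), an ion transport regulator with 2.0 to 29.97 counts per library, and near it were Gm45447 (0.82), Ntsr2 (0.84), Trpc2 (0.86) and Ankrd37 (0.89). Further genes among the 15 were Gm49368, Gm13568, Lax1, Cx3cr1, AC126937.1, Trbc1, Cd3g, Egln3 and Gm43539. On the log2 CPM scale all those named were lowest in WT 1 or tied for lowest there. This follows from their choice by likeness to Mb, itself lowest in WT 1, and is no result about them. Of all genes compared 25.4% were lowest in WT 1, with ties with an ATF4 BKO library left out.

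Egln3 and Ankrd37 belong to the oxygen list and stood among these 15. Egln3, a HIF prolyl hydroxylase that HIF itself induces, was at 20.6, 5.08 and 12.6 TPM in ATF4 BKO 1, 2 and 3 and at 3.85 and 8.65 TPM in WT 1 and 2. It scored 1.00 and had the order of Mb in the libraries, with ATF4 BKO 2 below WT 2. Egln3 was 1 of 158 genes with that order, of which 10 had a mean of at least 10 TPM and a log2 CPM range of at least 1. A link of Mb to oxygen sensing was not tested. Ankrd37, another gene induced by HIF, was at 5.11, 2.43 and 2.97 TPM in the ATF4 BKO mice and at 0.76 and 2.64 TPM in the WT mice. The log2 fold changes were 1.26 ± 0.66 for Egln3 and 1.42 ± 0.65 for Ankrd37 (SE, edgeR adjusted p = 0.911 for both).

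Among the 6630 genes with a mean of at least 10 TPM, a limit set after the first list was seen, Egln3 was nearest to Mb. It was followed by Rgs2 (1.07), a regulator of G protein signalling, the fatty acid receptor gene Ffar4 (1.11), the interferon-inducible Ifi27l2a (1.15), Gm45507, Gm16062, Depp1, Gm32468, Gm20536 and Adrb3 (1.26). Adrb3, the beta-3 adrenergic receptor of adipocytes through which cold acts on brown fat, was at 78.0, 62.0 and 61.2 TPM in ATF4 BKO 1, 2 and 3 and at 26.8 and 127 TPM in WT 1 and 2. Adrb3 shared the low value in WT 1 but was highest in WT 2. The muscle marker nearest to Mb was Myl1 with a score of 1.73, at rank 5252, and the others reached up to 5.74. Ucp1 was at rank 2402.

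**Figure D4:**
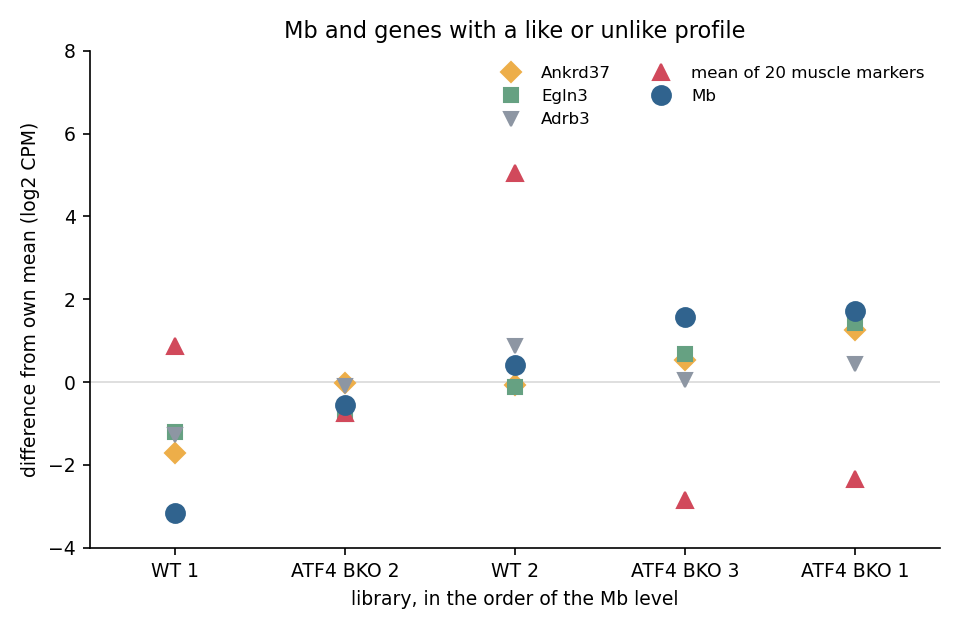
Difference from the gene's own mean (vertical, log2 CPM) in each library (horizontal, in the order of the Mb level), with 1 point per gene and library. Egln3 and Ankrd37 are lowest in WT 1 and highest in ATF4 BKO 1 as Mb is, Adrb3 is low in WT 1 alone, and the mean of 20 muscle markers is highest in WT 2 and lowest in ATF4 BKO 3 and 1.

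WT 1, lowest in Mb, was also lowest in macrophage and endothelial genes. The summed level of 10 macrophage markers was 216 TPM in WT 1, against 1244 in WT 2 and 729, 1397 and 459 in ATF4 BKO 1, 2 and 3. The direction between genotypes was not stable: their median log2 fold change was 0.42 with all libraries, -0.27 without WT 1, -0.02 without ATF4 BKO 2 and 1.59 without WT 2. It was 1.90 within the first prefix and -1.23 within the second, with 0 of 10 called by edgeR or DESeq2 and 0 under an unadjusted p of 0.05. Of 10 endothelial genes, 10 had a fold change above 0, with a median of 0.37, 0 called by edgeR or DESeq2 and 3 under an unadjusted p of 0.05 (5.23% of all genes were), and 5 were higher in every ATF4 BKO library than in both WT libraries (8.95% of all genes). Their summed level was 495 TPM in WT 1 against 630 in WT 2. The part of macrophage, endothelial or blood RNA in the Mb differences was not tested.

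The genes beside Mb on the chromosome had log2 fold changes between -0.26 (Rbfox2) and 0.27 (Apol6). The 3 nearest tested genes on each side were Rpl8, Zfp647 and 1110038F14Rik at lower coordinates and Apol6, Rbfox2 and Apol9a at higher ones. EdgeR and DESeq2 called 0 of the 6, and 0 had an unadjusted p under 0.05 in edgeR. Rbfox2, a splicing regulator, was at 10.2, 8.59 and 8.63 TPM in ATF4 BKO 1, 2 and 3 and at 15.9 and 11.3 TPM in WT 1 and 2. The log2 fold change of Rbfox2 was -0.26 ± 0.20 (SE, edgeR adjusted p = 0.931). Apol6, whose exons overlap the distal Mb start, had a log2 fold change of 0.27 ± 0.25 (SE, edgeR adjusted p = 0.938).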

How the data were processed

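The authors made stranded mRNA libraries and deposited, per mouse, kallisto 0.45.0 tables of estimated counts per transcript, not normalized between mice. The same deposited tables hold TPM, which kallisto derives from estimated counts and effective lengths. The build named is mm10, and the transcript annotation is not given in the sources used here.

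Counts and TPM were summed per gene with GENCODE M21 (GRCm38). Of 141450 transcripts 138191 matched by identifier, in 52022 genes, and the unmatched ones held 1.16% to 1.29% of counts. Rounded counts were fitted with edgeR 4.0.16 in R 4.3.3 (TMM, a minimum of 10 counts in 2 or more libraries, genotype as the sole term, quasi-likelihood test, Benjamini-Hochberg adjustment over 16450 genes, threshold 0.05). The TMM factors ranged from 0.928 to 1.06. DESeq2 1.42.0, limma 3.58.1 on log2(TPM + 1) and log2(TPM + 0.1), other scalings, no count filter, leaving out each library, blocks and a muscle covariate were the alternatives. The fits were tested on simulated data. Log2 CPM used a prior count of 2. A reference gene under 3 counts would have been set to 3 in ratios, and none was. Every pair of libraries differed by more than sampling noise.

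Mb, its reference genes and the gene lists were chosen with earlier results of these data known. Named genes are Mb, Ckm, Acta1, Ucp1, Atf4, list members, the 15 genes most like Mb (1 of them not reported here) and the 3 nearest tested genes on each side. No source says that libraries of a genotype came from separate litters, so p-values measure the spread between these mice.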

Additional observations from a re-analysis of the deposited data

How the results depend on the processing

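The count of genes called between genotypes was 1 with edgeR (Cacna1i, higher in ATF4 BKO), where 860 had an unadjusted p under 0.05. It was 121 with DESeq2, 8 with no filter, 0 with limma at a pseudocount of 1 TPM, 2 at 0.1 TPM, 0 with name prefixes as blocks, 218 with the muscle covariate, and 0 to 23 when 1 library was left out (23 without WT 1). The muscle covariate separated the genotypes, so the 218 calls are no correction for muscle. With a replicate block the count was 0, with 711 at an unadjusted p under 0.05, and Mb was at 1.92. Same-numbered libraries correlated at 0.05 and 0.20 in 2 pairs. With 2 WT libraries these values cannot decide whether the numbers mark pairs, and ATF4 BKO 1 and WT 1 also share a prefix.

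The log2 fold change of Mb kept its direction under all 17 alternatives. It was 3.73 within the first prefix and 1.16 within the second, and ranged from 0.82 to 4.37 when 1 library was left out. With the muscle covariate, which separated the genotypes, it was 5.52. The log2 ratio difference of Mb to Acta1 was 11.1 within the second prefix and that of Mb to Ucp1 ranged from 0.44 to 3.75 when 1 library was left out. Ratio differences to Ckm lay between 7.01 and 12.0. Atf4 passed the threshold with DESeq2 (-2.83) and with no filter (-2.82). Ucp1 turned to -0.022 on both log2 TPM scales. The cause was not tested. Depth limits Ckm and other muscle genes in ATF4 BKO 1 and 3, not Mb.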
